A study of Homo sapiens with 12 samples.

Results

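RNA expression was compared between PANC-1 cells depleted of QKI and PANC-1 cells that received a control siRNA. The unit of the comparison is the gene. Genes entered where their normalized count averaged 10 or more over the 3 siQKI and 3 siCtrl libraries, which gave 22521 of the 48114 genes listed. PANC-1 is a human cell line of pancreatic ductal adenocarcinoma (PDAC), an epithelioid carcinoma of the pancreatic duct, and the study uses it as a model of the basal-like subtype. The cells were transfected with 40 nM of siRNAs against QKI (siQKI) or RBFOX2 (siRBFOX2), or with a control siRNA (siCtrl), and polyA RNA was collected after 48 h from 3 libraries per group. Each silencing reagent was a commercial pool of siRNAs against the gene, whose sequences were not used here, and the 3 libraries of each group came from a single cell line. The siRBFOX2 libraries serve here as a second knockdown in the same cells, and the 3 control libraries of another line, HPAF-II, were not used here.

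QKI (quaking) is an RNA-binding protein of the STAR family. Its KH domain recognises ACUAAC-like elements in introns and in mature messages, through which it can repress or activate exons and change the stability of transcripts. It is best known for its work in myelinating glia and in muscle, and in epithelial tumors it has been linked to the mesenchymal splicing program. The nuclear isoform is called QKI-5, and the deposited values do not separate isoforms. Values are the authors' normalized counts, that is, gene counts divided by a factor for each library. Fold changes are on the scale of log2(normalized count + 1), so those of genes with low counts are understated. A gene is said to rise or fall where its limma adjusted p (Benjamini-Hochberg over all 22521 genes) was under 0.05. Because a few abundant genes can shift all others, nearly every count of a gene list is followed by the count after the libraries were rescaled to the same upper quartile. Genes that the naming rule picked are named below where they kept the call without any single library, unless said otherwise. In a bulk RNA sample, fewer cells of a type and less RNA per cell cannot be told apart.

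QKI, the silenced gene (GSHG0037392 in FAST DB, chromosome 6, 163414643 to 163578592, hg38), had 25909, 24539 and 26150.4 normalized counts in the siCtrl libraries and 4629.7, 5453 and 5020.2 in the siQKI libraries. The groups did not overlap, and 19.7% of the control level remained (log2 fold change -2.34, standard error 0.06, adjusted p = 1.06e-12, limma). QKI had 26742, 28333 and 28973 in the siRBFOX2 libraries, so the loss followed the siQKI label. The labelled cell type was checked on its markers. KRT8 and KRT19, keratins of ductal epithelium, were at 427827 ± 9527 and 158393 ± 3134 normalized counts in siCtrl cells and at 435021 ± 19310.1 and 162816 ± 6992 in siQKI cells (SD, n = 3). Among 8 leukocyte markers, PTPRC, CD3E and MS4A1 were at 0 in all 6 libraries, and among 8 fibroblast markers, DCN and FAP were. Pearson's r of log2 values across genes, which are not independent replicates, was 0.967 to 0.972 within the siCtrl and siQKI groups and 0.959 to 0.966 between them.

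QKI depletion changed 7430 of the 22521 genes (33.0%), of which 3357 rose (14.9%) and 4073 fell (18.1%). Most changes were small, with a median absolute log2 fold change of 0.37 among called genes. At least 1.5-fold changes were found in 1319 genes that rose (5.86%) and 717 that fell (3.18%), and 572 and 258 of these changed at least 2-fold. The order of the directions depended on the scaling. With upper-quartile scaling, 4451 genes rose and 2656 fell, so that 62.6% of the calls were rises against 45.2% with the deposited scaling, and the median of all genes moved from 0.03 to 0.11. Small falls of whole gene groups are therefore read below against both scalings. For 10069 genes (44.7%) the siQKI and siCtrl libraries did not overlap.

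**Figure D1:**
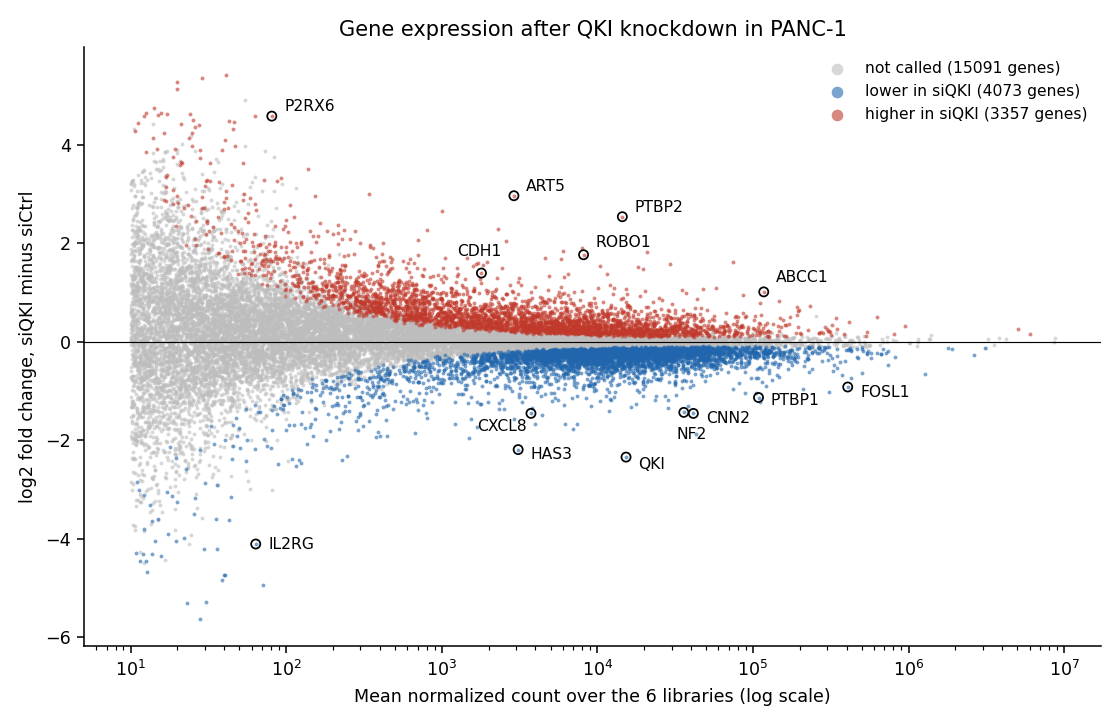
Each point is one of the 22521 genes, with the mean normalized count over the 6 libraries on a log axis and the log2 fold change of siQKI against siCtrl, red where higher (3357 genes) and blue where lower (4073 genes) by limma. Falls cluster among abundant genes, rises spread to genes of low and medium level, and PTBP2, ART5 and ROBO1 stand far above genes of their level, as QKI, HAS3, NF2 and CNN2 stand below.

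The splicing regulators PTBP1 and PTBP2 moved in opposite directions. These polypyrimidine-tract binding proteins are paralogs. PTBP1 is the form of most dividing cells, and PTBP2 replaces it in neurons, where PTBP1 itself no longer holds PTBP2 messages in an unproductive splice form. PTBP1 (GSHG0020964 in FAST DB, chromosome 19, 797410 to 812327) had 147413, 150229 and 149874 normalized counts in siCtrl and 69710.5, 68151 and 65998 in siQKI libraries (log2 fold change -1.13, standard error 0.04, adjusted p = 1.27e-11). PTBP2 (GSHG0000832 in FAST DB, chromosome 1, 96721665 to 96823739) had 4069, 4153 and 4547 in siCtrl and 24889, 25732 and 23432 in siQKI libraries (log2 fold change 2.54, standard error 0.06, adjusted p = 9.73e-13). Neither gene's groups overlapped, and the siQKI mean of PTBP2 was 580.0% of its control mean. PTBP2 was 2735, 2574 and 2565 in siRBFOX2 libraries, below siCtrl, and its difference between the knockdowns was 3.23 on the log2 scale (adjusted p = 7.26e-14). Of the other members of the list of MBNL, PTBP, CELF and NOVA factors, MBNL1 (-0.27) and CELF1 (-0.20), factors that set splicing during muscle development, fell, the latter not with upper-quartile scaling. The list had 3 rises and 4 falls among 11 tested members (3 and 2 with upper-quartile scaling) and a median log2 fold change of -0.04.

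Among the STAR and RBFOX families, RBFOX2 fell slightly from 15355, 15508 and 15424 to 12629, 12778 and 12520.0 normalized counts (log2 fold change -0.29, standard error 0.09, adjusted p = 0.0209), a call that was lost with upper-quartile scaling (-0.20) and without siCtrl replicate 2 (-0.28) or 3 (-0.29) or siQKI replicate 1 (-0.29) or 3 (-0.28). KHDRBS3 fell (-0.27), and KHDRBS1 and SF1, which share the STAR-type RNA-binding fold, were at -0.07 and 0.03 and did not pass, both chosen after their values were seen. Of the RNA-binding proteins that the study links to PDAC subtypes, RBMS1 (-0.48) and RBMS2 (-0.53), linked to the basal-like subtype, fell. ESRP2, an epithelial splicing regulator linked to the classical subtype, rose from 6862, 6431 and 6373 to 9041, 9286 and 8322 normalized counts (0.44). The general splicing machinery shifted by small steps. The hnRNP proteins, abundant RNA-packaging factors, had 0 rises and 15 falls among 21 tested members (2 and 7 with upper-quartile scaling) and a median log2 fold change of -0.18, and the core spliceosome had 1 rise and 25 falls among 40 tested members (1 and 15 with upper-quartile scaling) and a median log2 fold change of -0.16. The median over all tested genes was 0.03, and in the most abundant of 5 equal bins of genes 44.3% fell and 16.7% rose. Falls among them included U2AF1 (-0.52) and SF3A3 (-0.45), which bind the 3′ splice site and the branch site complex, and SYNCRIP (-0.34) and HNRNPDL (-0.32). None of the hnRNP or spliceosome changes reached 1.5-fold. SR proteins had 1 rise and 3 falls among 16, which flipped to 3 and 1 with upper-quartile scaling. AGO4, an Argonaute protein that carries microRNAs, rose from 1449.7 ± 32.8 to 3022 ± 96.2 (SD, n = 3; log2 fold change 1.06, standard error 0.08, adjusted p = 8.67e-08), while AGO2 fell (-0.37). The TNRC6 scaffolds that partner Argonautes all rose, with TNRC6A (0.38), TNRC6B (0.27) and TNRC6C (0.49). In the exon junction complex and decay machinery, RBM8A (-0.51) and SMG9 (-0.31) fell and SMG5 (0.19) rose.

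Genes that overlap another gene of the annotation are uncertain, because the counting is not stated to use strand. Of the RNA-processing genes just named, ESRP2, KHDRBS1, MBNL1, PTBP1, PTBP2, RBFOX2, RBM8A, RBMS1, RBMS2, SF1, SMG5, TNRC6A and TNRC6C do so. The alternative sites within these genes are not resolved by gene totals.

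**Figure D2:**
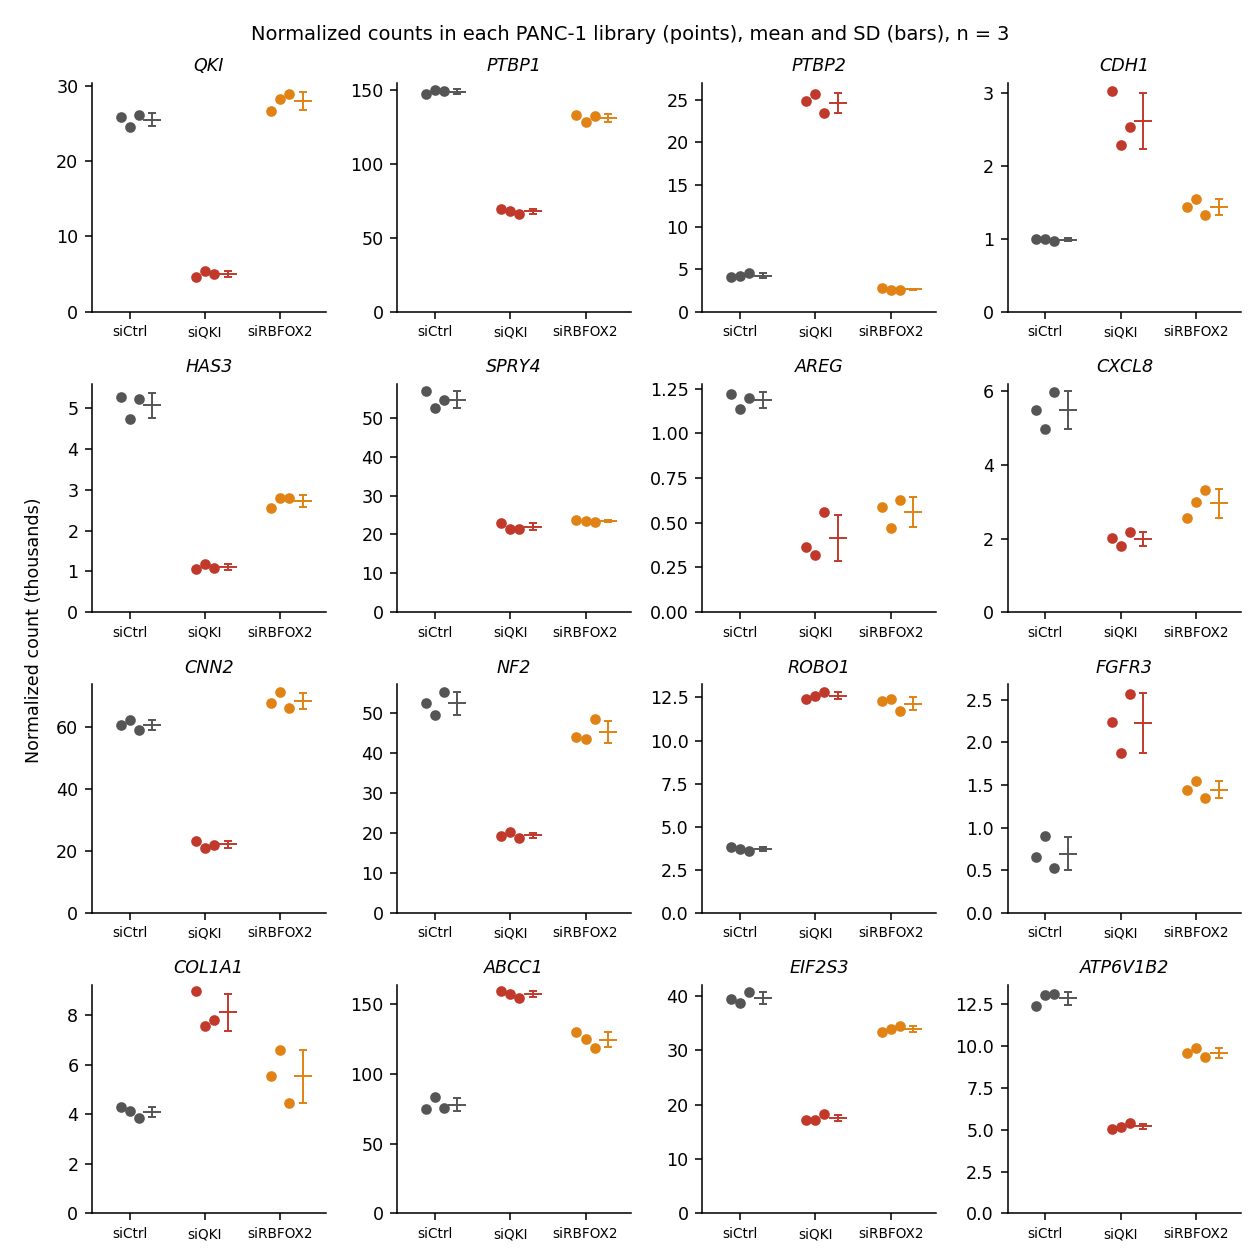
Normalized counts (linear axes from 0) of 16 genes in each siCtrl, siQKI and siRBFOX2 library, with the mean and SD of the 3 libraries beside the points. In all 16 genes the siQKI points lie clear of the siCtrl points, and the siRBFOX2 points lie near or among siQKI for ROBO1, SPRY4 and AREG, with siCtrl or beyond it for QKI, PTBP2 and CNN2, and between for the others.

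Feedback genes and transcriptional targets of the ERK MAP kinase pathway fell. When this pathway is active, it induces its own inhibitors (Sprouty proteins and dual-specificity phosphatases) and ETS-family transcription factors. This list had 2 rises and 18 falls among 22 tested members (2 and 16 with upper-quartile scaling) and a median log2 fold change of -0.64, and 11 of the falls reached 1.5-fold, beside 3.18% of all genes. After RBFOX2 silencing, set against the same siCtrl libraries, the list had 2 rises and 18 falls with a median log2 fold change of -0.53. SPRY4, a Sprouty inhibitor, had 57006, 52607 and 54589.7 normalized counts in siCtrl and 22968, 21437 and 21516 in siQKI libraries (log2 fold change -1.32, standard error 0.04, adjusted p = 1.85e-11). DUSP5, a nuclear ERK phosphatase, had 30747, 31691 and 35249 and 15496, 15955 and 14258 (log2 fold change -1.09, standard error 0.06, adjusted p = 4.14e-09). ETV4, an ETS factor, had 5600.2, 6463 and 6675 and 2719.7, 3103 and 3166 (log2 fold change -1.06, standard error 0.08, adjusted p = 2.02e-07). None of these groups overlapped. ETV1 (-1.23), PHLDA1 (-0.96) and FOSL1 (-0.92) also fell, and FOSL1, an AP-1 subunit, did so at a high level (532058 ± 17822 to 280894 ± 5990.4; SD, n = 3).

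Ligands of the EGF receptor fell as well. AREG (amphiregulin) had 1222, 1134 and 1199 normalized counts in siCtrl and 366, 319 and 562 in siQKI libraries (log2 fold change -1.55, standard error 0.19, adjusted p = 1.61e-05). EREG (epiregulin) had 10004, 10005 and 10214 and 4783, 4825 and 4416 (log2 fold change -1.11, standard error 0.07, adjusted p = 2.39e-08), and HBEGF (-0.95) fell too. The receptor ERBB2 rose (0.68), and the list of receptors and ligands had 3 rises and 6 falls among 14 tested members (3 and 5 with upper-quartile scaling) and a median log2 fold change of -0.05. Immediate-early genes, transcription factors and regulators switched on within minutes of stimulation, had 0 rises and 15 falls among 26 tested members (1 and 14 with upper-quartile scaling) and a median log2 fold change of -0.35. JUN (-0.77), IER3 (-0.73), EGR1 (-0.52) and EGR2 (-0.65) were lower. The falls made up 57.7% of this list, beside 44.3% in the most abundant of 5 equal bins of genes, which holds its median level. After RBFOX2 silencing, set against the same siCtrl libraries, the list had 1 rise and 21 falls with a median log2 fold change of -0.81. EGR1 and EGR2 were lower still after RBFOX2 silencing, the siQKI level being 1.32 and 2.29 above siRBFOX2 on the log2 scale (adjusted p = 6.11e-07 and 2.31e-07). Among other receptor tyrosine kinases, FGFR3 rose from 658, 899 and 521 to 2235, 1872 and 2574 (log2 fold change 1.71, standard error 0.17, adjusted p = 1.63e-06), PDGFA (1.27), a ligand, and PDGFRB (1.42) rose, and ROR1 (-1.34), MERTK (-0.91) and KIT (-1.16) fell. ERBB2, ETV4, FGFR3, IER3, PDGFA, PHLDA1 and SPRY4 overlap another gene.

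Most secreted inflammatory factors that changed were lower. The list of chemokines and cytokines had 4 rises and 12 falls among 36 tested members (4 and 10 with upper-quartile scaling) and a median log2 fold change of -0.50. The list also holds genes of cell-surface or intracellular proteins, such as ICAM1, NFKB1 and TNFAIP2, which rose, and BIRC3, NFKB2 and NFKBIA, which fell. The chemokine CXCL12 rose. These genes were named after their values were seen. CXCL8 (interleukin-8, a neutrophil attractant) had 5496, 4973 and 5991 normalized counts in siCtrl and 2018, 1799 and 2178 in siQKI libraries (log2 fold change -1.46, standard error 0.10, adjusted p = 5.84e-08). CCL2, a monocyte attractant, had 18409, 15834 and 16908 and 8589, 7159 and 6842 (log2 fold change -1.18, standard error 0.07, adjusted p = 1.89e-08). CXCL1 went from 17396 ± 1880.4 to 9478 ± 1134 and CXCL2 from 1739.7 ± 597 to 808 ± 76.4 (SD, n = 3; log2 fold changes -0.88 and -1.06). For none of these 4 chemokines did the groups overlap. IL18 (-0.82) and LIF (-0.79), both of the cytokine type, fell, and so did the NF-κB subunit RELB (-0.63) and the inhibitor NFKBIA (-0.48), whereas NFKB1 rose (0.36). These 3 NF-κB genes were chosen after their values were seen. CCL2 was at 0.08 after RBFOX2 silencing and was -1.26 in siQKI against siRBFOX2 (adjusted p = 2.96e-08). The sum of the 8 leukocyte markers was 50540.0 to 57213 in siCtrl and 38504 to 39332 in siQKI libraries, nearly all of it from CD68 (-0.49), 4 of the 8 had a mean of at least 10, and PTPRC, CD3E and MS4A1 were at 0 in all 6 libraries.

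CXCL8, CXCL1 and CXCL2 lie in a cluster on chromosome 4, and their promoters are shown because these members fell together and carry the same element. The sequences come from RefSeq (GRCh38.p14) and run 5′ to 3′ from 250 bases before to 50 after the gene start. They cover chr4:73740319-73740618, plus strand for CXCL8, chr4:73869143-73869442, plus strand for CXCL1 and chr4:74099146-74099445, minus strand for CXCL2. Capitals mark the letters GGAATTTCC, the shape of an NF-κB site, and in CXCL8 also TGACTCA, the shape of an AP-1 site. The searches covered both strands.
CXCL8: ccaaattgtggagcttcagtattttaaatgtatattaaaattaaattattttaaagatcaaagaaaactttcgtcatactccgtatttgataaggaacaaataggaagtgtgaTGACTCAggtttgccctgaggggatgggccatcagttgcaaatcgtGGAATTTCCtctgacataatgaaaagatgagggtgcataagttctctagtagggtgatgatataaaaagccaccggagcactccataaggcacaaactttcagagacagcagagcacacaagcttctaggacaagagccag
CXCL1: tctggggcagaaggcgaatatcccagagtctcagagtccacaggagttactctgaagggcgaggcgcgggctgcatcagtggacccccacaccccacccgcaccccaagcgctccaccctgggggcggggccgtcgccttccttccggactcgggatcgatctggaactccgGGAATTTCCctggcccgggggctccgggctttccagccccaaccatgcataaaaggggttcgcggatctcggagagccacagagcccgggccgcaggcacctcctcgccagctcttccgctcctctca
CXCL2: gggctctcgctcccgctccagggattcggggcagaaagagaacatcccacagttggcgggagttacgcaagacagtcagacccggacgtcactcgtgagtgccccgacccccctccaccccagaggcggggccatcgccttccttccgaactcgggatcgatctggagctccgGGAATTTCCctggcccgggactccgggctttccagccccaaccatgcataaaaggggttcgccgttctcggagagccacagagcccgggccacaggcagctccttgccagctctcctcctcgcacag
The first letter of GGAATTTCC lay at position -91 in CXCL8, -78 in CXCL1 and -77 in CXCL2, counted from the gene start. Over all 35116 promoters of the table, 0.461% held GGAATTTCC and 4.95% held TGACTCA. CXCL3, CXCL5 and CXCL6 hold it too, and their log2 fold changes of -0.00, -0.56 and -1.13 did not pass (adjusted p = 0.993, 0.758 and 0.217). Among all promoters of the chemokine and cytokine list, 4 of 8 promoters of genes that fell held it on either strand. So did 2 of 5 promoters of genes that rose (ICAM1 and NFKB1) and 5 of 22 promoters of genes not called. These counts are of promoters and not of genes, since NFKB2 and NFKB1 have several each. CCL2, IL18 and LIF, which fell, have no promoter in this count. Of 79 tested genes with GGAATTTCC in a promoter, 16 rose and 16 fell (20.3% each). Among the 12972 tested genes with any promoter in the table, 18.2% rose and 24.9% fell. These 3 CXCL genes and ICAM1 were chosen for the element after their values were seen, and a match is not a bound site.

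Genes of epithelial and mesenchymal identity moved in both directions. CDH1 (E-cadherin), the adhesion protein that epithelial cells lose in epithelial-to-mesenchymal transition (EMT), had 995, 997 and 968 normalized counts in siCtrl and 3026, 2275 and 2528 in siQKI libraries (log2 fold change 1.39, standard error 0.11, adjusted p = 1.65e-07). The polarity and junction genes TJP3 (1.25) and LLGL2 (0.88) and the epithelial transcription factor ELF3 (0.58) rose, while PARD3 (-0.79) and F11R (-0.49), which position tight junctions, fell, and the list had 7 rises and 5 falls among 31 tested members (10 and 4 with upper-quartile scaling) and a median log2 fold change of 0.12. In desmosomes, PKP1 fell (-1.04) and DSC2 (0.39), JUP (0.27) and DSG2 (0.25) rose. PERP, a desmosome protein, rose from 520392 ± 17131 to 738629 ± 32735 (SD, n = 3; log2 fold change 0.50). Of the transcription factors that drive EMT, SNAI2 (-1.38), SNAI1 (-0.52) and ZEB1 (-0.28) fell, in a list that had 1 rise and 3 falls among 9 tested members (2 and 3 with upper-quartile scaling) and a median log2 fold change of -0.04. ZEB1, which represses CDH1, went from 9706, 9356 and 10575 to 7836, 8462 and 8133 and SNAI1 from 2829.8, 2716 and 2779.8 to 1907, 1996 and 1887. Neither pair of groups overlapped.

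Mesenchymal markers rose more often than they fell. The list had 9 rises and 2 falls among 17 tested members (9 and 1 with upper-quartile scaling) and a median log2 fold change of 0.42. Rises made up 52.9% and falls 11.8%, beside 21.7% and 31.4% in the fourth of 5 bins by level, which holds the list's median level. PDGFRB (1.42), COL1A1 (0.99) and S100A4 (0.72) rose, and AXL, a receptor tyrosine kinase of mesenchymal tumor cells, fell from 103419.7, 103504 and 108102 to 56938, 60896 and 58064 (log2 fold change -0.84, standard error 0.04, adjusted p = 5.39e-10). COL1A1 rose from 4282, 4128 and 3869 to 8969, 7589 and 7808 (log2 fold change 0.99, standard error 0.11, adjusted p = 5.55e-06). The sum of the 8 fibroblast markers was 4166 to 4709 in siCtrl and 8506 to 9766 in siQKI libraries, and 3 of the 8 had a mean of at least 10. The defining markers DCN and FAP were at 0 in all 6 libraries. The genes that define the basal-like subtype of PDAC in tumors had 0 rises and 7 falls among 16 tested members (0 and 7 with upper-quartile scaling) and a median log2 fold change of -0.57. Falls made up 43.75%, beside 2.93% in the second of 5 bins by level, which holds their median level and in which 8.68% rose. AREG (-1.55), DHRS9 (-1.47), S100A2 (-0.74), KRT15 (-0.71) and SLC2A1 (-0.44) fell. Of the 24 genes that define the classical subtype, 12 were under a mean of 10 and were not tested, and the others had 1 rise and 1 fall among 12 tested members (1 and 0 with upper-quartile scaling) and a median log2 fold change of 0.21. AGR2, a secretory-pathway protein of classical tumors, was the one that rose, from 87774, 88044 and 77509 to 126263, 116076 and 118996 (log2 fold change 0.51, standard error 0.06, adjusted p = 4.3e-06). Mucins and secretory genes had 5 rises and 0 falls among 14 tested members (5 and 0 with upper-quartile scaling) and a median log2 fold change of 0.36. Rises made up 35.7%, beside 8.68% in the second bin by level, which also holds their median level. MUC6 (1.85), MUC16 (1.54) and MUC5AC (0.91) rose from low levels. FOXA1 (1.03) and PAX6 (1.03), transcription factors of pancreatic endoderm, rose, and SOX9 (-0.46), the ductal progenitor factor, fell. Of the genes most often altered in pancreatic cancer, TGFBR2 (-0.62) and MYC (-0.27) fell and TGFBR1 (0.28), ACVR1B (0.28), GNAS (0.18) and ARID1A (0.16) rose, in a list that had 4 rises and 2 falls among 20 tested members (8 and 2 with upper-quartile scaling) and a median log2 fold change of 0.08. ACVR1B, ARID1A, ELF3, FOXA1, GNAS, LLGL2, PAX6, S100A4, SOX9, TJP3 and ZEB1 overlap another gene.

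Extracellular matrix genes rose more often than they fell. Collagens had 14 rises and 3 falls among 31 tested members (15 and 2 with upper-quartile scaling) and a median log2 fold change of 0.27, and basement-membrane genes 10 rises and 3 falls among 20 tested members (10 and 2 with upper-quartile scaling) and a median log2 fold change of 0.22. Rises made up 45.2% and 50% of these lists and falls 9.7% and 15%, beside 14.9% and 18.1% of all genes. In the third of 5 bins by level, which holds the collagen median, 25.5% rose and 10.7% fell. In the fourth, which holds the basement-membrane median, 21.7% rose and 31.4% fell. COL2A1 (1.39), COL21A1 (1.302), COL12A1 (0.80) and COL4A2 (0.68) rose and COL13A1 (-1.24) fell. Of the laminin chains, LAMB2 (0.53), LAMA5 (0.44) and LAMA3 (0.43) rose and LAMB4 (-2.41) and LAMB3 (-0.80) fell. LAMB4 did so at a low level, from 159, 159.9 and 292 to 23.9, 51.5 and 37.7 normalized counts, as one of the 15 largest falls with a symbol, a mean of at least 50 and no overlap. Among enzymes that crosslink or modify collagen, LOXL4 (1.203) and PLOD2 (0.63) rose. PLOD2, a lysyl hydroxylase, rose from 15182, 14828 and 14687 to 23713, 22528 and 22782, without overlap. Matrix proteases split, with MMP11 (1.27), MMP15 (0.73) and MMP2 (0.65) higher and MMP1 (-1.32), ADAM19 (-0.91) and PLAUR (-0.62) lower. HAS3, which makes hyaluronan, was among the largest falls of a well expressed gene, from 5292, 4730.4 and 5225 to 1061, 1195 and 1078 (log2 fold change -2.19, standard error 0.08, adjusted p = 7.53e-11). HAS2, named after its values were seen, was at 1859 ± 205 and 1837 ± 168 (SD, n = 3) and did not pass. In heparan sulfate synthesis, GPC2 (1.05), HS6ST1 (0.80) and GPC1 (0.38) rose, 2 of them glypican core proteins, and HS3ST1 (-2.47) fell. The list had 8 rises and 4 falls among 22 tested members (10 and 4 with upper-quartile scaling) and a median log2 fold change of 0.12. Among integrins, the matrix receptors, ITGB8 rose from 457, 249.9 and 220.3 to 926, 1028 and 873 (log2 fold change 1.68, standard error 0.23, adjusted p = 3.74e-05) and ITGA2 (-0.92), ITGA10 (-0.76) and ITGA3 (-0.47) fell, and the list had 4 rises and 5 falls among 17 tested members (7 and 5 with upper-quartile scaling) and a median log2 fold change of 0.09. ADAM19, GPC1, GPC2, HAS2, HAS3, ITGA10, ITGA3, ITGB8, LAMA5 and LOXL4 overlap another gene.

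Developmental signalling genes rose more often than they fell. Ephrins, semaphorins, plexins and Slit receptors, which guide cell contacts and axons, had 24 rises and 6 falls among 39 tested members (24 and 5 with upper-quartile scaling) and a median log2 fold change of 0.36, beside 14.9% of all genes that rose. ROBO1, a Slit receptor, rose from 3804, 3709 and 3609 to 12392, 12590.4 and 12799.9 (log2 fold change 1.76, standard error 0.05, adjusted p = 3.33e-12), and SEMA3D (1.203), EFNA2 (1.15), EPHA4 (0.82) and NRP2 (0.80) rose. WNT genes had 17 rises and 3 falls among 43 tested members (18 and 3 with upper-quartile scaling) and a median log2 fold change of 0.17. Rises made up 39.5% and falls 7.0% of this list, beside 25.5% and 10.7% in the third of 5 bins by level, which holds its median level. The ligands WNT6 (1025, 942 and 839 in siCtrl, 2953, 2715 and 2624 in siQKI libraries, log2 fold change 1.56, standard error 0.12, adjusted p = 9.71e-08) and WNT10A (1.503) and the receptor FZD1 (0.83) rose, and the secreted antagonist SFRP1 fell (-1.17). TGF-β and BMP genes had 19 rises and 10 falls among 50 tested members (20 and 5 with upper-quartile scaling) and a median log2 fold change of 0.22, with FSTL3 (0.998), SMAD6 (0.87), TGFB2 (0.70) and ID2 (0.70) higher and INHBA (-1.05) and TGFB3 (-0.86) lower. Notch genes had 10 rises and 5 falls among 25 tested members (13 and 5 with upper-quartile scaling) and a median log2 fold change of 0.17. RBPJ, the DNA-binding effector, rose from 2662, 2636 and 2648 to 4724, 4789 and 4797 (log2 fold change 0.85, standard error 0.06, adjusted p = 3.49e-08), as did DLL1 (0.83) and LFNG (0.71), and NOTCH4 (-1.68), DLL4 (-1.101) and MAML2 (-0.83) fell. HOX genes, which record position along the body axis, had 13 rises and 2 falls among 30 tested members (17 and 1 with upper-quartile scaling) and a median log2 fold change of 0.29, with HOXC12 (1.15), HOXD4 (1.03) and HOXC10 (0.57) higher and HOXC11 (-1.14) lower. The TGF-β, Notch and HOX lists have their median level in the fourth bin, where 21.7% rose and 31.4% fell. Their rises made up 38%, 40% and 43.3%, and their falls 20%, 20% and 6.67%. Of the neuronal genes, MAP2 (1.03), L1CAM (0.79) and TUBB3 (0.22) rose and SYP (-0.52) fell, in a list that had 4 rises and 3 falls among 18 tested members (4 and 2 with upper-quartile scaling) and a median log2 fold change of 0.21. Among glial genes, MBP (myelin basic protein), known from myelin where QKI was first studied, fell (-0.68). DLL1, EPHA4, HOXC10, HOXC11, INHBA, L1CAM, MBP, NOTCH4, NRP2, ROBO1, SYP and TGFB2 overlap another gene.

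NF2 and WWTR1 of the Hippo pathway and the actin-binding CNN2 fell. NF2 (merlin), a tumor suppressor that activates the Hippo kinases, had 52626, 49557 and 55283 normalized counts in siCtrl and 19334, 20124 and 18676 in siQKI libraries (log2 fold change -1.44, standard error 0.05, adjusted p = 6.02e-11). WWTR1 (TAZ), the transcriptional co-activator that the same pathway restrains, had 40795, 39313 and 42135 and 16039, 15785 and 15949 (log2 fold change -1.35, standard error 0.04, adjusted p = 1e-11). Both an inhibitor and an effector of the pathway were thus lower. The targets AXL (-0.84), NT5E (-0.79) and ANKRD1 (-0.66) fell and CRIM1 (0.57) rose, and the list had 6 rises and 12 falls among 28 tested members (9 and 11 with upper-quartile scaling) and a median log2 fold change of -0.09. Contractile actin genes and tropomyosins had 5 rises and 17 falls among 32 tested members (9 and 13 with upper-quartile scaling) and a median log2 fold change of -0.16. The falls made up 42.9% of the Hippo list and 53.1% of the actin list, and the rises 21.4% and 15.6%. Genes of like level had similar shares, with 31.4% falls and 21.7% rises in the fourth of 5 bins by level and 44.3% and 16.7% in the most abundant, so neither balance is a result about these lists. CNN2 (calponin 2), an actin-binding protein, fell from 60565, 62276 and 59222 to 23283, 21054 and 21975 (log2 fold change -1.46, standard error 0.04, adjusted p = 1.15e-11), and PDLIM7 (-0.56) and MYLK (-0.53) fell. CALD1 (caldesmon), which stabilises actin filaments, rose (0.52). CFL1 (cofilin), which severs actin filaments, fell from 1560197 ± 3489 to 990586 ± 31028 (SD, n = 3). CALD1, CFL1, CNN2, CRIM1, MYLK, NF2 and WWTR1 overlap another gene.

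Genes of translation, protein quality control and proliferation fell by small amounts. Initiation factors had 1 rise and 29 falls among 36 tested members (2 and 19 with upper-quartile scaling) and a median log2 fold change of -0.22. EIF2S3, the gamma subunit of eIF2, stood out, with 39502, 38703 and 40835 normalized counts in siCtrl and 17199.6, 17163 and 18234 in siQKI libraries (log2 fold change -1.18, standard error 0.04, adjusted p = 3.59e-11). Proteasome subunits had 0 rises and 21 falls among 31 tested members (2 and 16 with upper-quartile scaling) and a median log2 fold change of -0.20, and cytosolic chaperones 3 rises and 18 falls among 22 tested members (3 and 14 with upper-quartile scaling) and a median log2 fold change of -0.24. DNAJB1 (-0.55), a partner of HSP70, and the chaperonin subunit CCT6A (-0.49) were among those that fell. Cytosolic ribosomal proteins had 0 rises and 8 falls among 79, which flipped to 4 and 1 with upper-quartile scaling. Their falls also depended on single libraries, with 2 or 3 without siCtrl replicate 2, siQKI replicate 2 or siQKI replicate 3 and 15 without siRBFOX2 replicate 2. Mitosis and spindle genes had 2 rises and 36 falls among 59 tested members (3 and 20 with upper-quartile scaling) and a median log2 fold change of -0.16, and DNA replication genes 2 rises and 35 falls among 58 tested members (8 and 22 with upper-quartile scaling) and a median log2 fold change of -0.18. FOXM1, the transcription factor of the mitotic genes, fell from 20502, 19588 and 20347 to 13696, 13701 and 13299 (log2 fold change -0.57, standard error 0.04, adjusted p = 6.22e-08), and BIRC5 (-0.58), SPC24 (-0.63) and CDC45 (-0.62) fell. Among mitosis genes 1 and among replication genes 1 fell by 1.5-fold or more. These groups are abundant, and falls are more frequent among abundant genes in general. In the most abundant of 5 equal bins of genes by level, 44.3% fell and 16.7% rose with the deposited scaling, against 28.2% and 25.1% with upper-quartile scaling. Replication-dependent histones, whose messages mostly lack a polyA tail and are thus poorly captured in these libraries, had 13 rises and 1 fall among 51 tested members (14 and 1 with upper-quartile scaling) and a median log2 fold change of 0.25. H4C8 (0.87), H2BC5 (0.83) and H2AC6 (0.81) rose. Of DNA repair genes, FANCC (-0.63), FANCD2 (-0.50) and ERCC1 (-0.48) fell. CCT6A, DNAJB1, ERCC1, FANCC, FOXM1 and H2AC6 overlap another gene.

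**Figure D3:**
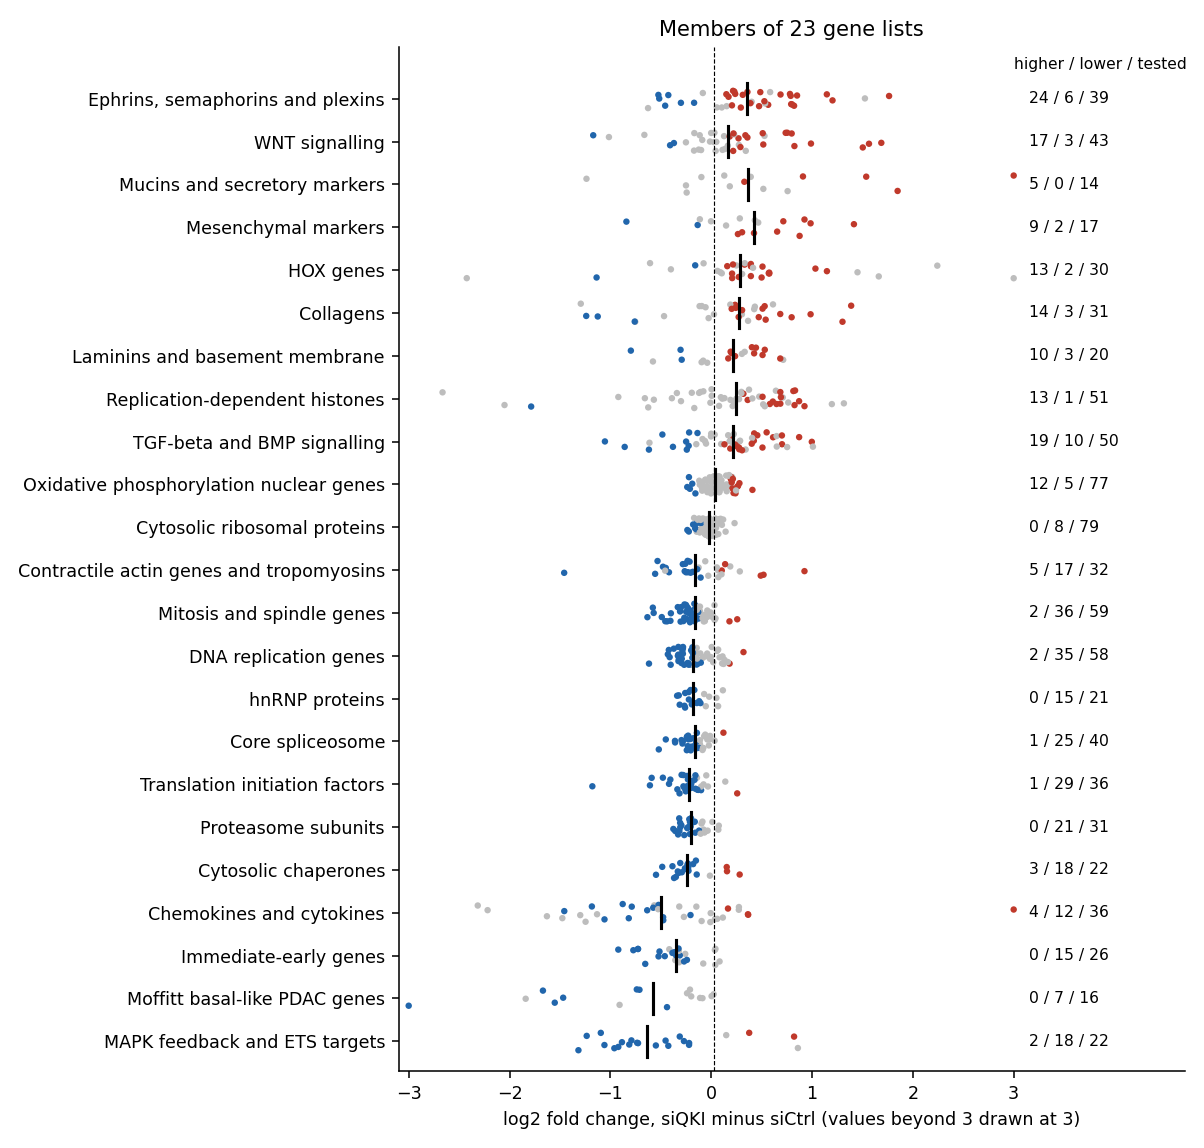
Each point is a tested member of one of 23 gene lists (red higher, blue lower, grey not called by limma), the black bar is the median of the list, and the dashed line is the median of all tested genes (0.03). The lowest medians are those of MAPK feedback and ETS targets (-0.64) and basal-like genes (-0.57), mesenchymal markers (0.42) and mucins and ephrins (both 0.36) have the highest, and translation, proteasome and replication genes form narrow bands just below 0.

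Single regulators of cell death, antigen presentation and drug handling changed. Apoptosis regulators had 3 rises and 19 falls among 34 tested members (4 and 14 with upper-quartile scaling) and a median log2 fold change of -0.21. Falls made up 55.9% and rises 8.8%, beside 31.4% and 21.7% in the fourth of 5 bins by level, which holds the list's median level. BAK1, a pore-forming executioner of the BCL2 family, had 23452, 22263 and 24391 normalized counts in siCtrl and 8950.4, 9218 and 9738 in siQKI libraries (log2 fold change -1.33, standard error 0.05, adjusted p = 9.83e-11). The death receptor TNFRSF10B fell from 7339.6, 6750.2 and 7862 to 3508, 3413 and 3026 (log2 fold change -1.14, standard error 0.07, adjusted p = 1.44e-08), and the survival factor BCL2L1 fell too (-0.68), so members with opposite roles moved the same way. Targets of p53 had 9 rises and 9 falls among 27 tested members (12 and 7 with upper-quartile scaling) and a median log2 fold change of 0.04. CCNG1 (cyclin G1) rose from 9199.6, 9985 and 9308 to 28266, 26567 and 26622 (log2 fold change 1.52, standard error 0.05, adjusted p = 1.27e-11). Interferon-stimulated genes had 4 rises and 12 falls among 44 tested members (6 and 8 with upper-quartile scaling) and a median log2 fold change of -0.10. Of this list 36.4% were called, beside 33.0% of all genes. Falls made up 27.3%, beside 18.1% of all genes and 31.4% of the fourth bin by level, which holds the list's median level. Rises made up 9.1%, beside 21.7% in that bin. ISG20 (-0.89), IFIT2 (-0.73) and IFIT3 (-0.65) fell and IFITM1 (0.63) rose. In antigen presentation, ERAP1, which trims peptides, rose from 6439, 6132 and 6727 to 16319, 16790.4 and 16815 (log2 fold change 1.37, standard error 0.05, adjusted p = 6.97e-11). Genes that handle gemcitabine, a nucleoside drug of PDAC therapy, had 4 rises and 11 falls among 18 tested members (6 and 8 with upper-quartile scaling) and a median log2 fold change of -0.22. Their falls made up 61.1% and rises 22.2%, beside 44.3% and 16.7% in the most abundant bin, which holds their median level. CMPK1 (-0.77) and DCTD (-0.58), nucleotide enzymes, and NT5E (-0.79), which dephosphorylates AMP, fell, and CDA, which deaminates the drug, rose from 411, 415 and 545 to 1309, 747 and 687 (log2 fold change 0.95, standard error 0.23, adjusted p = 0.0049). Genes tied to irinotecan, fluorouracil and oxaliplatin had 5 rises and 15 falls among 31 tested members (7 and 9 with upper-quartile scaling) and a median log2 fold change of -0.16. Here falls made up 48.4% and rises 16.1%, beside 31.4% and 21.7% in the fourth bin, which holds the median level of this list. The efflux pump ABCC1 rose from 74668, 83273 and 75747 to 158791, 157116 and 154270.2 (log2 fold change 1.01, standard error 0.05, adjusted p = 6.17e-10), ABCC4 rose (0.63), and DPYD, which degrades fluorouracil, fell (-0.68). BCL2L1, CCNG1, ERAP1, IFIT2, IFIT3, ISG20 and TNFRSF10B overlap another gene.

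Metabolic lists moved little as groups, while single members changed by more than 2-fold. ATP6V1B2, a subunit of the proton pump of lysosomes, fell from 12413, 13059.7 and 13097 to 5069.9, 5189 and 5388 (log2 fold change -1.301, standard error 0.05, adjusted p = 9.64e-11), and CTSL (-0.83), ATP6V1H (-0.66) and ATG7 (-0.68) fell, in a list of lysosome and autophagy genes that had 7 rises and 15 falls among 36 tested members (8 and 11 with upper-quartile scaling) and a median log2 fold change of -0.09. In cholesterol synthesis, TM7SF2 rose from 3569.8, 3898 and 3010.2 to 8884, 7935 and 9151 (log2 fold change 1.31, standard error 0.11, adjusted p = 2.7e-07) and INSIG1, which holds back the sterol-sensing transcription factors, fell (-0.85). In fatty acid synthesis and desaturation, ACACB (0.65), FADS2 (0.65) and FASN (0.32) rose and ELOVL2 (-0.46) fell, in a list that had 10 rises and 6 falls among 27 tested members (14 and 3 with upper-quartile scaling) and a median log2 fold change of 0.06. Nuclear genes of oxidative phosphorylation had 12 rises and 5 falls among 77 tested members (35 and 0 with upper-quartile scaling) and a median log2 fold change of 0.04, so the count of rises depended on the scaling, and it was 7 without siCtrl replicate 3. None changed 1.5-fold. Counts for the glycolysis list (2 up, 9 down), the citric acid cycle (4 up, 9 down) and the hypoxia response (6 up, 8 down) leaned down and reversed to 7 and 5, 6 and 4, and 7 and 5 with upper-quartile scaling. CS (0.57), citrate synthase, and IDH2 (0.58) rose. In the amino-acid list, serine-synthesis genes split, with PHGDH (0.42) higher and PSAT1 (-0.53) and SHMT2 (-0.54) lower. PSAT1 moved the other way after RBFOX2 silencing (0.50), and its difference between the knockdowns was -1.03 (adjusted p = 4.52e-08). Targets of the unfolded protein and integrated stress responses had 12 rises and 5 falls among 30 tested members (18 and 4 with upper-quartile scaling) and a median log2 fold change of 0.13. ATG7, ELOVL2, FADS2, FASN, IDH2 and SHMT2 overlap another gene.

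The largest single changes were mostly in genes of low level. The 15 largest rises among genes with a symbol and a mean of at least 50, without overlap between the groups, ran from 2.47 (HGFAC) to 4.58 (P2RX6). P2RX6, a subunit of ATP-gated ion channels, had 4.79, 5 and 6.04 normalized counts in siCtrl and 231, 121 and 116 in siQKI libraries (log2 fold change 4.58, standard error 0.56, adjusted p = 1.61e-05), with single-digit values in all 3 siCtrl libraries. ART5, an ADP-ribosyltransferase, rose at a higher level, from 798, 792 and 445 to 5873, 4851 and 4692 (log2 fold change 2.96, standard error 0.19, adjusted p = 2.89e-08). MDH1B had 66.1, 129.9 and 47.3 and 564, 603 and 641 (log2 fold change 3.004, standard error 0.36, adjusted p = 1.22e-05). Others among these rises were HGFAC, SIGLEC10-AS1, FBXO15, VIPR1, PRKAR2B, PRODH, SLC44A5, PRRT1B, LOC107985728 and TMEM190, beside PTBP2 above. Single siCtrl libraries moved the fold of SIGLEC10-AS1, PRKAR2B, FBXO15, VIPR1, TMEM190 and PRODH by over 1.5 times with the call kept. The fold of PRODH was smaller without siCtrl replicate 1 and larger without replicate 3. SIGLEC10-AS1 went from 3.62 to 2.18 without siCtrl replicate 1 and 4.51 without replicate 3, and PRKAR2B from 2.96 to 2.05 without replicate 3. Without siCtrl replicate 2, FBXO15 went from 3.31 to 2.69, VIPR1 from 2.99 to 3.61 and TMEM190 from 2.53 to 3.16. QKI itself was among the 15 largest falls, chosen by the same rule. IL2RG, a shared cytokine-receptor chain, had 208, 50 and 94.6 in siCtrl and 0, 22.7 and 7.34 in siQKI libraries (log2 fold change -4.11, standard error 0.90, adjusted p = 0.00228), with 1 siQKI library at 0. The log2 fold change was -2.84 without siQKI replicate 1, -5.12 without siQKI replicate 2 and -2.64 at a pseudocount of 10, with the call kept in all 3. XDH, xanthine dehydrogenase, fell from 428, 309 and 486 to 106, 81.1 and 58.7 (log2 fold change -2.32, standard error 0.30, adjusted p = 2.52e-05), and HS3ST1, a heparan sulfate sulfotransferase, from 195, 224 and 212 to 55.9, 39.2 and 23.1 (log2 fold change -2.47, standard error 0.39, adjusted p = 0.000145). LOC100996643, LAMB4, BCAN and HAS3 also belonged to this group. Of the 15 rises 1 and of the 15 falls 6 lost the call without some single library and are not named. UFC1, the conjugating enzyme of the ubiquitin-like protein UFM1, was chosen after its values were seen because it fell at a high level, from 65963, 68657 and 67855 to 17729, 19041 and 18642 (log2 fold change -1.87, standard error 0.04, adjusted p = 5.32e-13).

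Gene classes differed in the balance of rises and falls, and they also differed in level. Protein-coding genes outside the named families had 2610 rises and 3766 falls among 13959 (median -0.03, 3477 and 2472 with upper-quartile scaling). Zinc-finger genes of the ZNF family, most of which encode repressors, had 117 rises and 49 falls among 477 (median 0.12, 166 and 21 with upper-quartile scaling), LINC loci 44 rises and 19 falls among 336 (median 0.20, 51 and 15 with upper-quartile scaling), and antisense loci 95 rises and 20 falls among 685 (median 0.22, 119 and 16 with upper-quartile scaling). Genes without a symbol had 281 rises and 110 falls among 5238 (median 0.18, 360 and 67 with upper-quartile scaling). ZNF genes had 24.5% rises and 10.3% falls, near the 25.5% and 10.7% of the third of 5 bins by level, which holds their median. In the second bin, which holds the other medians, 8.68% rose and 2.93% fell (median 0.22). LINC loci had 13.1% and 5.65%, antisense loci 13.9% and 2.92%, and genes without a symbol 5.36% and 2.1%. The part of level in these balances was not tested. Of antisense loci, 86.4% overlap another gene, so their values and those of their partners cannot be told apart without strand. In the lowest of 5 equal bins of genes by level, the median log2 fold change was 0.24, with 2.93% called. In the highest bin it was -0.10, with 61.1% called. Of abundant nuclear and host noncoding RNAs, H19 rose from 159154, 161207 and 137230.4 to 253051, 217348 and 233718 (log2 fold change 0.62, standard error 0.10, adjusted p = 0.000194) and HOTAIR, within the HOXC cluster, from 5638, 6079 and 4915 to 10306, 9873 and 9731 (log2 fold change 0.85, standard error 0.08, adjusted p = 8.39e-07, overlapping another gene).

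**Figure D4:**
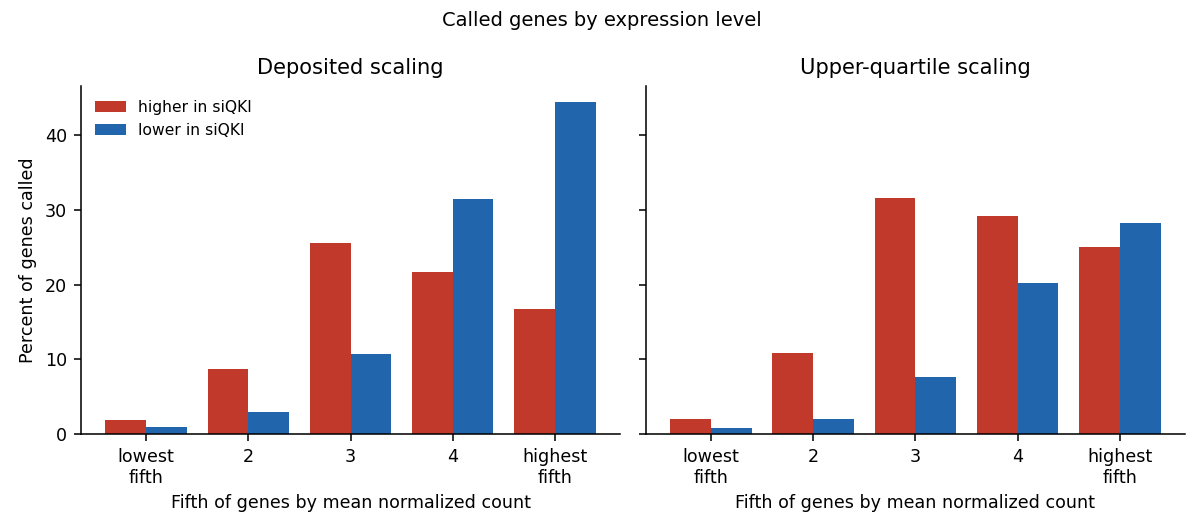
Bars give the percent of genes called higher (red) or lower (blue) in siQKI in 5 equal bins of genes by mean normalized count, with the deposited scaling (left) and after upper-quartile scaling (right). With the deposited scaling falls outnumber rises in the highest 2 bins (44.3% against 16.7% in the top bin), and with upper-quartile scaling only in the top bin (28.2% against 25.1%).

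Transcript features were described for the protein-coding genes with a GENCODE v29 transcript (13938 of 14418), taking for each gene the transcript with the longest coding sequence. Genes that rose at least 1.5-fold had a median GC content of 56.1%, against 50.3% for all and 50.9% for those that fell as far, and a lower median level (671 against 3288 normalized counts). The part of GC content in the rises was not tested. The QKI element ACTAAC was counted in the 3′ UTRs on the transcript strand. It was present in 15.9% of all 3′ UTRs, in 17.4% of those of genes that rose and in 16.2% of those that fell. Per kilobase the density was 0.128, 0.127 and 0.128, and in genes that fell at least 1.5-fold it was 0.147. CAATCA, the same letters in reverse order, had 0.179 in all genes and 0.188 in those. In the longest of 4 equal bins of 3′ UTRs, 27.7% of 1315 genes with ACTAAC fell and 22.2% rose, beside 25.5% and 21.6% of 2031 without. No test was run on these shares, and introns, where QKI acts on splicing, were not searched.

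Whether a change went with QKI silencing in particular was read from the direct contrast of siQKI with siRBFOX2, which sets no siCtrl level against either knockdown, although the siCtrl libraries enter the shared spread and the gene filter. It called 4834 of the 22521 genes (21.5%). Of the 7430 genes called against siCtrl, 3242 (43.6%) also differed from siRBFOX2, 1299 of the rises and 1943 of the falls. Both knockdowns are set against the same siCtrl libraries, so a change that they share cannot be told apart from a trait of those 3 libraries. The PTBP pair, CDH1, WNT6, ART5, AGO4, L1CAM, ITGB8, NF2, WWTR1, CNN2, EIF2S3, BAK1, TNFRSF10B, UFC1, CCL2 and IL2RG all differed from siRBFOX2. L1CAM, an adhesion molecule, was at 81041 ± 3966 in siCtrl, 140185 ± 8470.3 in siQKI and 81284 ± 4250.1 in siRBFOX2 libraries (SD, n = 3; siQKI minus siRBFOX2 0.79, adjusted p = 7.78e-08). For CDH1 the 3 siRBFOX2 libraries had 1438, 1535 and 1322, above siCtrl and below siQKI (siQKI minus siRBFOX2 0.86, adjusted p = 4.08e-05). NF2 had 43901, 43557 and 48406 in siRBFOX2 libraries (siQKI minus siRBFOX2 -1.22, adjusted p = 8.67e-10). ROBO1, SPRY4, ERAP1, FOXA1, HOTAIR and NT5E were called against siCtrl and not against siRBFOX2. ROBO1 had 12293, 12399 and 11703 in siRBFOX2 libraries, beside 12392, 12590.4 and 12799.9 in siQKI libraries (siQKI minus siRBFOX2 0.05, standard error 0.05, adjusted p = 0.496), and SPRY4 differed by -0.10 (standard error 0.04, adjusted p = 0.119). A p that misses the threshold does not show equal levels. Of the called members of the MAPK feedback list, 14 of 20 differed from siRBFOX2, in either direction. So did 13 of 30 in the ephrin and semaphorin list and 13 of 16 in the chemokine and cytokine list. Of initiation factors 16 of 30 did, and of mitosis genes 10 of 38. Against the same siCtrl libraries, RBFOX2 silencing gave 2 rises and 18 falls with a median log2 fold change of -0.53 in the MAPK feedback list, beside 2 and 18 with -0.64 for QKI, so the fall of this list was seen in both knockdowns. The ephrin and semaphorin list had 9 rises and 5 falls with a median log2 fold change of 0.12 beside 24 and 6 with 0.36. The chemokine and cytokine list had 9 rises and 7 falls with a median log2 fold change of 0.15 beside 4 and 12 with -0.50. Initiation factors had 2 rises and 15 falls with a median log2 fold change of -0.13 beside 1 and 29 with -0.22, and mitosis genes 0 rises and 53 falls with a median log2 fold change of -0.24 beside 2 and 36 with -0.16. Basal-like genes had 2 rises and 3 falls with a median log2 fold change of -0.54 beside 0 and 7 with -0.57. Of the 7 called, 2 differed from siRBFOX2. Mucins and secretory genes had 4 and 0 with 0.35 beside 5 and 0 with 0.36, and 0 of the 5 called differed. Collagens had 14 and 2 with 0.23 beside 14 and 3 with 0.27. Basement-membrane genes had 9 and 1 with 0.22 beside 10 and 3 with 0.22.

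**Figure D5:**
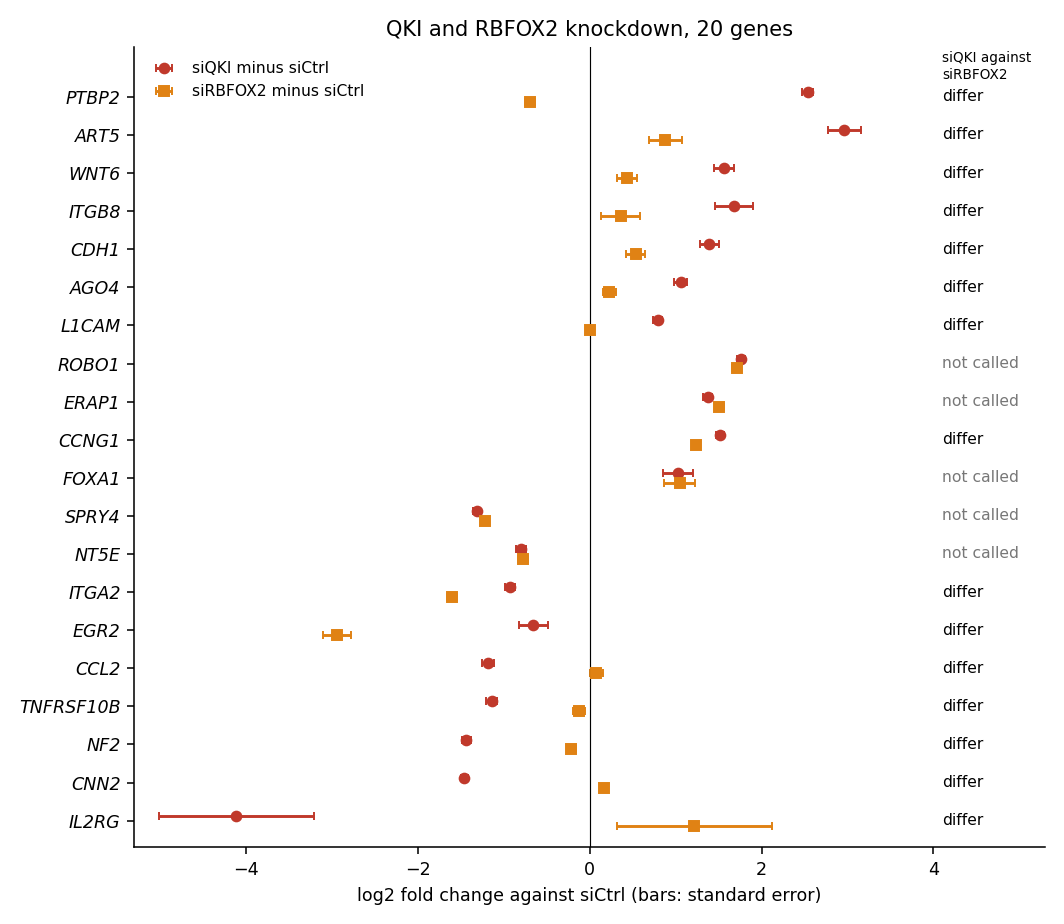
Log2 fold changes (points, with standard errors) of 20 genes in siQKI (red circles) and siRBFOX2 (orange squares) against the same siCtrl libraries, and at the right whether the direct contrast of siQKI with siRBFOX2 was called by limma. PTBP2 and CNN2 lie on opposite sides of 0, CCL2, L1CAM and TNFRSF10B are near 0 after RBFOX2 silencing, and the points of ROBO1, ERAP1, FOXA1, SPRY4 and NT5E lie close together, with no call between the knockdowns.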

How the data were processed

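RNA-seq of polyA RNA was available for 3 siCtrl, 3 siQKI and 3 siRBFOX2 libraries of PANC-1. The deposited values are a signal made by the authors, gene counts divided by DESeq2 size factors over the 9 libraries, with FAST DB gene annotation on hg38. The submitters' processing notes name STAR 2.7.5a, FastQC, Picard, SAMtools and DESeq2. The study's software list also names featureCounts. What was counted and the use of strand are not given in the sources used here. In each library all values were whole multiples of a step (within 0.01), but 83.4% to 84.6% of the low values were multiples of 3 steps, so a step was not taken as a read, counts were not rebuilt and no count test was run. Library totals were 343178610 to 353936909 steps in siCtrl and 292248837 to 376192091 in siQKI, so depth did not separate the groups. The files hold no columns of the authors' own comparisons. The table of HPAF-II, normalized separately, was not used. In the symbols, 2 that had been turned into dates were restored, and 349 genes join several symbols.

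Values were tested as log2(value + 1) in limma 3.58.1 (R 4.3.3, with Python 3.11.15, numpy 2.4.6, pandas 2.3.3 and matplotlib 3.10.9), with 3 groups in a fit of the 9 libraries, a mean-variance trend and Benjamini-Hochberg adjustment over the 22521 genes that averaged 10 or more in the siQKI and siCtrl libraries. Groups came from the labels. The labels do not say whether the libraries of a group came from separate cultures, so p-values measure the spread between these libraries, which may be technical. The fit was tested on simulated data with 200 known changes. It recovered 119 in the right direction, 52 of 100 at 2-fold and 67 of 100 at 4-fold, with 1 false call. The text names QKI, RBFOX2, the EMT genes of the study, the 15 largest rises and 15 largest falls with a symbol, a mean of at least 50 and no overlap between groups, and up to 6 called members of each of 75 gene lists by size of change (in lists with fewer than 2 such members, up to 2 of the highest mean), leaving out those whose call was lost without a single library. Lists are described by their counts and median and were not tested. The genes, the lists and the comparisons were chosen with earlier results of these data known. Alternatives were other pseudocounts (0.1, 10), a mean of at least 50 or no filter, upper-quartile scaling, a fit of only the 6 libraries, the replicate number as a block, no trend, stricter thresholds and leaving out each library. Promoters come from RefSeq tables (GRCh38.p14), and transcript features from GENCODE v29.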

Additional observations from a re-analysis of the deposited data

Results flagged for a closer look

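In 221 genes the siQKI and siRBFOX2 libraries were called in opposite directions against the shared siCtrl libraries, and all 221 were also called in the direct contrast of siQKI with siRBFOX2 (limma, adjusted p under 0.05). The 5 largest of these differences among genes with a symbol, a mean of at least 50 and siQKI and siCtrl libraries that did not overlap are given here. PTBP2, the neuronal splicing regulator, was 3.232 higher on the log2 scale in siQKI than in siRBFOX2. The collagen gene COL24A1 differed by -1.858 and the actin-binding protein gene CNN2 by -1.631, both lower in siQKI. IGFBPL1 was 1.561 and DUSP2, a phosphatase of MAP kinases, 1.469 higher in siQKI.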

How the results depend on the processing

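Without the 1.5-fold limit, 7430 genes changed, and with it 2036 did, 1319 higher and 717 lower, while the contrast of siQKI with siRBFOX2 gave 966 in place of 4834. At an adjusted p under 0.01, 2183 genes were higher in place of 3357, and 3093 differed from siRBFOX2. Upper-quartile scaling left 2656 genes lower in place of 4073. Leaving out single libraries gave 6213 to 7670 changed genes, 2727 to 3466 higher and 3434 to 4204 lower, 3889 to 4764 that differed from siRBFOX2, and a log2 fold change of QKI between -2.40 and -2.29. The pseudocounts, filters, trend and fit of 6 libraries moved no count over all genes by over 1.5 times. Of the 150 counts of list members, 34 moved by more without the trend, 9 with only the 6 libraries, 6 with the block and 1 to 4 with each other pseudocount or filter. Falls of ribosomal proteins went from 8 to 1 without the trend and 14 with only the 6 libraries, and rises of oxidative phosphorylation genes from 12 to 7 without the trend. With the replicate block, 7332 genes changed, 3319 higher and 4013 lower, and 4739 differed from siRBFOX2. Libraries with the same number did not deviate together (r of deviations from -0.0257 to 0.0303), so the numbers pair nothing, and the block changed none of these counts over all genes by over 1.5 times. Of 402 genes that the naming rule gives, 399 were past the threshold, none reversed in any setting, and 78 lost the call in at least 1 setting, 62 without the trend, 25 with upper-quartile scaling, 4 with the block and 61 without a single library. Of the genes named in the report, BCAN, DLL4, EGR2 and SIGLEC10-AS1 lost the call without the trend, and CELF1 with upper-quartile scaling. RBFOX2 lost it under both. The cause of these losses was not tested. The direction of small changes rests on the scaling, overlapping genes may share counts without strand, and genes of low level allowed few calls at 3 libraries a group.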
